A study of Mus musculus with 6 samples.

Results

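The 41 genes described here encode heat shock chaperones, nearly all of the cytosol, nucleus or mitochondria, with their cofactors and the transcription factors that control them. They were chosen by name (HSP70, HSP110, HSP90, HSP40, small HSP, chaperonin and co-chaperone genes, Hsf1 and Hsf2) and found by symbol among the 56941 Ensembl gene IDs of the count table. The choice was made with earlier results of these data known. All 41 were found, and all 41 passed the filter on low counts. RNA was sequenced from CD31-selected lung cells of mouse pups on postnatal day 7, in 3 libraries from pups kept in hyperoxia (75% oxygen) since postnatal day 0 and 3 libraries from pups kept in room air (21% oxygen) over the same days. No strain, genotype, transgene or further agent was given for either group, and the labels do not say whether a library came from 1 pup or several, so p-values measure only the spread between these libraries. Reads of Y-linked genes were nearly absent in hyperoxia 1 and hyperoxia 3 and present in the other libraries. Their presence is therefore partly confounded with oxygen in every comparison below. All 6 cell suspensions were made by warm enzymatic digestion and magnetic bead selection.

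Molecular chaperones keep other proteins folded. HSP70 proteins bind unfolded stretches, HSP40 proteins deliver clients to HSP70 and start its ATP cycle, HSP110 proteins recharge HSP70 with ATP, and HSP90 matures kinases and steroid receptors with the help of co-chaperones. Small heat shock proteins hold damaged proteins in a soluble state, and the barrel-shaped chaperonins fold proteins inside a cavity. Under protein stress the factor HSF1 binds heat shock elements, inverted repeats of GAA, and raises many of these genes at once. In tissues, warm digestion is itself known to induce heat shock and immediate early genes.

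In hyperoxia 6 of the 41 genes were higher and 3 were lower by edgeR's quasi-likelihood test (Benjamini-Hochberg adjusted p below 0.05 over 17072 genes), and 32 did not pass. The genes that rose were the small heat shock protein genes Cryab and Hspb8, the inducible HSP70 gene Hspa1a, the HSP40 gene Dnajb4, the HSP110 gene Hspa4l and the mitochondrial HSP70 gene Hspa9. The genes that fell were the HSP90 cofactor gene Chordc1, the HSP40 gene Dnaja1 and the HSP110 gene Hsph1. The 9 calls are 22% of the genes, where 11.2% of all tested genes were called (6.77% higher and 4.41% lower). The 2 groups of libraries did not overlap at 20 of the 41 genes (48.8%), 12 higher and 8 lower in hyperoxia, where 30.9% of all tested genes did not overlap (16.5% higher and 14.4% lower). Each of the 41 genes had at least 336 counts in every library. The tested genes include less counted ones, so the shares are not matched for level. With a filter of 1 count per 1000000 in 3 libraries, 1202 of 14182 genes were higher and 834 lower, and 6 and 3 of the 41. Because the 41 genes were chosen with earlier results of these data known, their shares cannot be weighed against those of all tested genes. The median log2 fold change (hyperoxia over room air) of the 41 was 0.04, and that of all tested genes was -0.01. Cryab, Dnajb4, Hspa9 and Chordc1 passed under each of the 16 alternatives run, whereas the other 5 calls were lost under at least 3 of them.

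**Figure D1:**
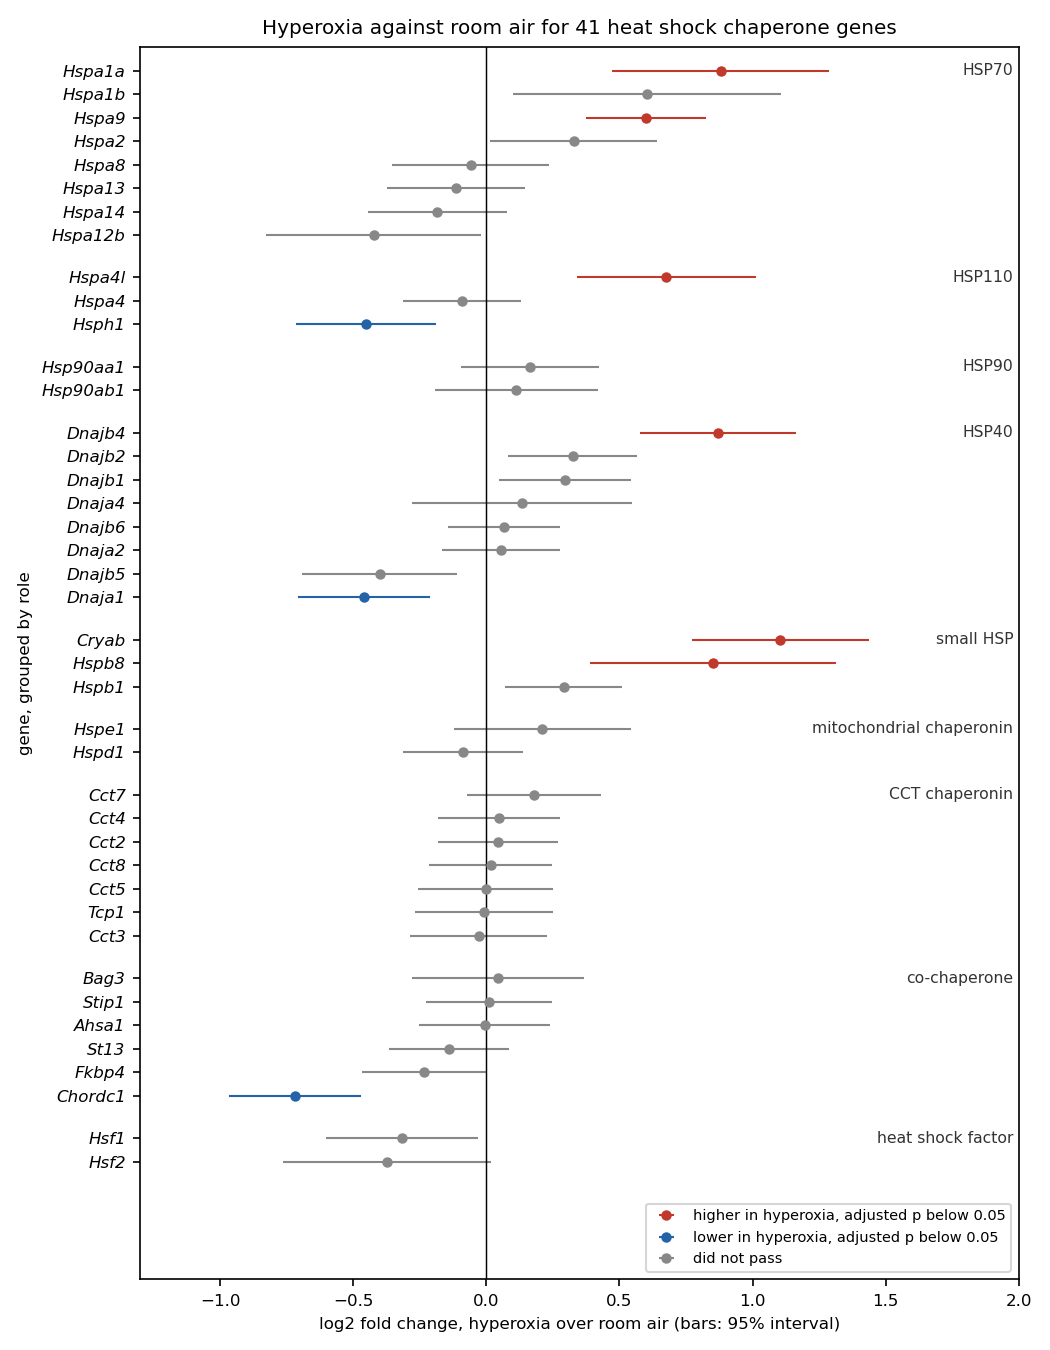
The log2 fold change (hyperoxia over room air, horizontal axis) of each of the 41 genes, grouped by role down the page. Points are edgeR estimates and bars their approximate 95% intervals, with 6 genes higher (red), 3 lower (blue) and 32 that did not pass (grey).

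The summed level of the 41 genes was 7664, 7258 and 7727 CPM (counts per 1000000 counts, scaled by TMM) in the hyperoxia libraries, against 7518, 7287 and 7024 CPM in the room air libraries, so the sums overlapped. Much of each sum came from Hsp90ab1 (mean 1894 CPM in hyperoxia and 1752 CPM in room air) and Hspa8 (1561 and 1626 CPM). Neither gene passed, so the overlap says little about the less abundant genes. The libraries held 39379793 to 42343192 counts each, and a single one of the 41 genes had 336 to 81669 counts in a library. Beside the 41 genes, markers of other cells moved. Of 10 markers of alveolar type 1 epithelium, 8 were higher in hyperoxia, with sums of 7197 to 8411 CPM in hyperoxia and 4571 to 5112 CPM in room air. Of 12 pan-endothelial genes, 1 was lower, with sums of 11587 to 15796 CPM in hyperoxia and 13652.5 to 18796 CPM in room air, lowest in hyperoxia 2 and room air 3. The CD31 gene Pecam1 stood at 2649, 1931.5 and 2441 CPM in hyperoxia and 3109, 2970 and 2269 CPM in room air. The surfactant gene Sftpc stood at 8652 to 10875 CPM in hyperoxia and 7650.4 to 12969.8 CPM in room air, so alveolar type 2 epithelial RNA was abundant in all 6 libraries. By edgeR, 0 of 10 alveolar type 2 markers (3 at an unadjusted p under 0.05, 2 by DESeq2) and 0 of 10 fibroblast markers (1 at an unadjusted p under 0.05, 1 by DESeq2) passed. Of 10 ciliated cell markers 1 was higher, of 12 macrophage and monocyte markers 2 were higher and 1 was lower, and of 6 tested erythroid genes 2 were lower by edgeR and 5 were called by DESeq2 and by limma-voom. The erythroid sum was 11 to 27.5 CPM in hyperoxia and 32.7 to 52.1 CPM in room air. The part of these other cells in the results was not tested. In such mixed RNA, more cells of a type and more RNA per cell cannot be told apart.

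**Figure D2:**
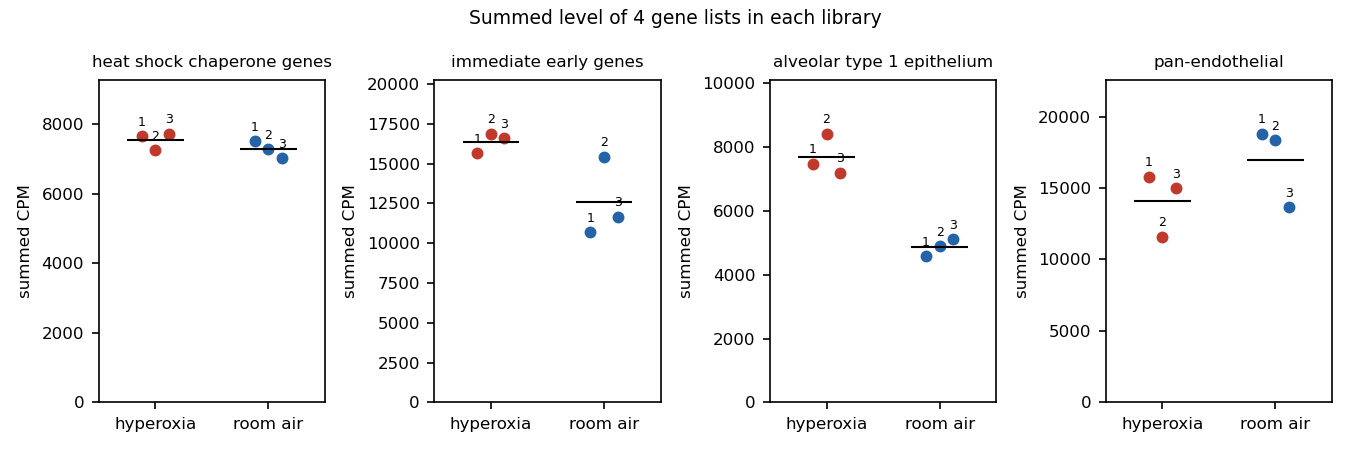
Summed CPM of 4 gene lists in each library, as points numbered by replicate, with the group mean as a line. The heat shock chaperone sums overlap between hyperoxia (7258 to 7727 CPM) and room air (7024 to 7518 CPM), whereas the immediate early and alveolar type 1 sums are higher in all 3 hyperoxia libraries.

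Levels were compared between genes per kilobase of exon. Hsp90ab1, the constitutive cytosolic HSP90, was the highest of the 41 at 631.6 ± 36.0 CPM per kb in hyperoxia and 584.2 ± 41.4 CPM per kb in room air (SD, n = 3 each). Hspa8, the constitutive cytosolic HSP70, came next at 363 ± 21.7 CPM per kb in hyperoxia and 378 ± 16.9 CPM per kb in room air. The third in room air was Hspa12b, a distant HSP70 relative found in endothelium, at 57.5 ± 9.51 CPM per kb in hyperoxia and 77.1 ± 17.9 CPM per kb in room air. Its room air level was within the replicate spread of those of Cct2 (73.6 ± 3.84 CPM per kb) and Cct5 (69.6 ± 6.40 CPM per kb). The lowest were Hsf2 (1.08 ± 0.171 CPM per kb in hyperoxia and 1.40 ± 0.132 in room air) and Hspa4l (2.31 ± 0.390 CPM per kb in hyperoxia and 1.45 ± 0.112 in room air). The largest move in this order was that of Cryab, which ranked 7 of 41 in hyperoxia and 17 of 41 in room air. Hspa1a ranked 10 in hyperoxia and 19 in room air, and Dnaja1 ranked 23 in hyperoxia and 16 in room air.

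**Figure D3:**
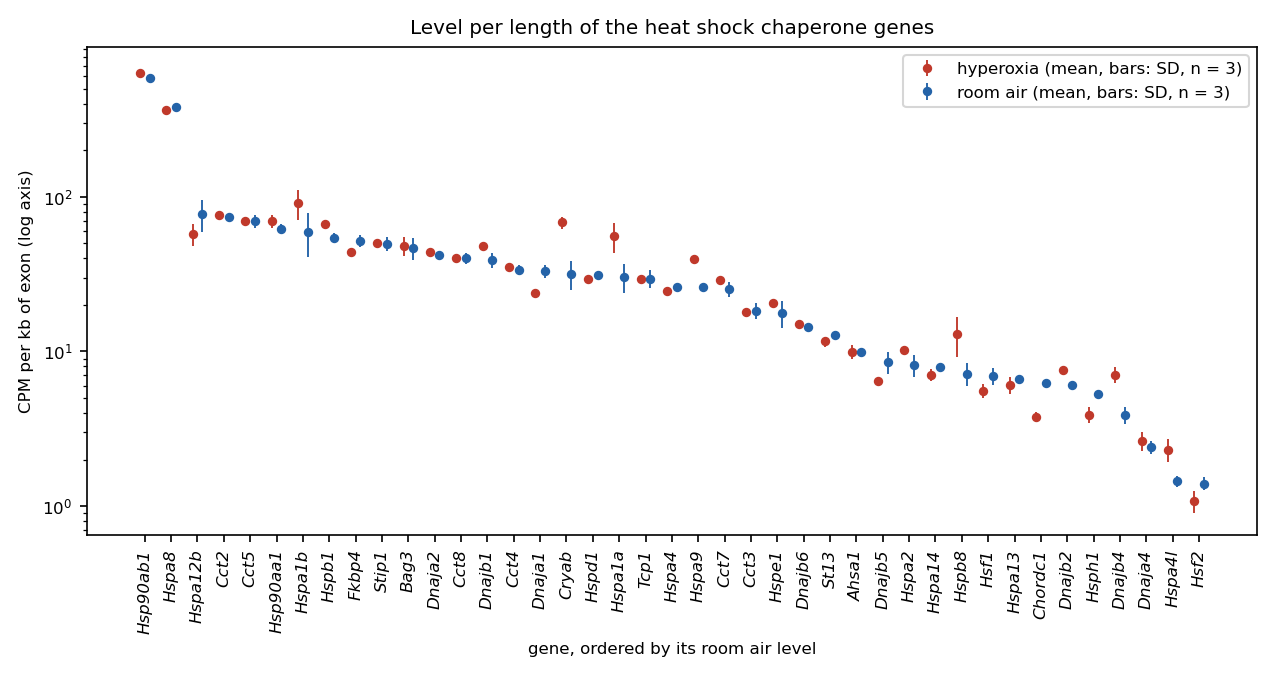
Mean CPM per kb of exon (log axis) of each of the 41 genes in hyperoxia (red) and room air (blue), with bars for the SD over 3 libraries, ordered by the room air level. Hsp90ab1 and Hspa8 stand above 300 CPM per kb in both groups, and the other genes lie below 100 CPM per kb.

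The promoters were read for the heat shock element. The 2-unit element was GAANNTTC or TTCNNGAA, each its own reverse complement, so both strands were covered. The 3-unit element was GAANNTTCNNGAA or TTCNNGAANNTTC, which are reverse complements of each other and contain the 2-unit element. RefSeq promoters (GRCm38.p6, 250 bases before to 50 after the transcript start) were matched by symbol for 32 of the 41 genes; the others were Hsp90aa1, Hsp90ab1, Cryab, Hsf1, Hspa13, Hspa9, St13, Cct4 and Hspa8. At least 1 promoter held a 2-unit element in 16 of the 32 genes and a 3-unit element in 5, where 17.0% and 0.662% of all 27025 genes in the table held them. Of the 25 matched genes that did not pass, 10 held a 2-unit element and 3 a 3-unit element. All 3 genes that fell held a 2-unit element, and Chordc1 and Hsph1 held a 3-unit element. Of the 4 matched genes that rose, Hspa1a, Hspb8 and Dnajb4 held a 2-unit element, Hspa4l had none in this window, and 0 held a 3-unit element. The other 3-unit elements were those of Hspd1, Hspe1 and Dnajb6, which did not pass the test. Only exact GAA and TTC units were counted, so an element with a mismatched unit would be missed. A match is a description of these letters and not a shown binding site. The promoters of the 6 called genes with an element are shown first, in lower case from 5′ to 3′ with every 2-unit match in capitals. That of Hspe1 comes last, because it lies between the divergent genes Hspe1 and Hspd1 and holds overlapping elements next to a pair of genes that did not pass.
Chordc1, chr9:18292017-18292316, plus strand: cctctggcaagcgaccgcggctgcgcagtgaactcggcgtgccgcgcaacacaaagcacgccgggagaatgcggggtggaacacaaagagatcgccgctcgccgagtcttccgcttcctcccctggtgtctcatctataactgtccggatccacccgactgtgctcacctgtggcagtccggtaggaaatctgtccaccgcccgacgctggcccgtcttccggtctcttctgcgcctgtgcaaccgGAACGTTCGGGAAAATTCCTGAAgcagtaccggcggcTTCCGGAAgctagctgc
Hsph1, chr5:149636287-149636586, minus strand: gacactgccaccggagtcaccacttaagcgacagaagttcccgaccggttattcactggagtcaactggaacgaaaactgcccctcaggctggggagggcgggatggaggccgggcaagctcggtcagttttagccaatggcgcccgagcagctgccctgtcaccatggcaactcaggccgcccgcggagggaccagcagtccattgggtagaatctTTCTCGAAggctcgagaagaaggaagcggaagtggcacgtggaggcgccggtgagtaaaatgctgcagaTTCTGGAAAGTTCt
Dnaja1, chr4:40722218-40722517, plus strand: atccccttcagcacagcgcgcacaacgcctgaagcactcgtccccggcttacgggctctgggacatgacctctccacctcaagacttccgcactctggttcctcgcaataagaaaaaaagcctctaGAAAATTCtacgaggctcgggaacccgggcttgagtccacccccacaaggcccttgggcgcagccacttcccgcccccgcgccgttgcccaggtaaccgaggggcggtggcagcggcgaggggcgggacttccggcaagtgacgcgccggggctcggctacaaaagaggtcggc
Hspa1a, chr17:34972107-34972406, minus strand: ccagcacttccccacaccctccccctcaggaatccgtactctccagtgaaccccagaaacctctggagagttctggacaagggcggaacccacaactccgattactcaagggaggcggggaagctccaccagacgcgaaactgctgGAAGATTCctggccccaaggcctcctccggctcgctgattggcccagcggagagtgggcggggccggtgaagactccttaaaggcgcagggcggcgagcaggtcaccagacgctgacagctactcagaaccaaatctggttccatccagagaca
Hspb8, chr5:116422815-116423114, minus strand: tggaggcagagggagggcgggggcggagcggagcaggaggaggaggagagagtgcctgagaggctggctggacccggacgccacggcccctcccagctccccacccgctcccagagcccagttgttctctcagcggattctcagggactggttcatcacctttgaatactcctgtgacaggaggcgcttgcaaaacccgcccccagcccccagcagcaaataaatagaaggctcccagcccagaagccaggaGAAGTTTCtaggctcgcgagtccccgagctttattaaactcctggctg
Dnajb4, chr3:152193796-152194095, minus strand: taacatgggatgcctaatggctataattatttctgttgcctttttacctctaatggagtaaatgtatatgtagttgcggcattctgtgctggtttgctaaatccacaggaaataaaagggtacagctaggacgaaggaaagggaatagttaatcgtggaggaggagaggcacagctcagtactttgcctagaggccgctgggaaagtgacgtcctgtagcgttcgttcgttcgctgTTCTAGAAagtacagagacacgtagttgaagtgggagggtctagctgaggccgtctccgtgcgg
Hspe1, chr1:55087898-55088197, plus strand: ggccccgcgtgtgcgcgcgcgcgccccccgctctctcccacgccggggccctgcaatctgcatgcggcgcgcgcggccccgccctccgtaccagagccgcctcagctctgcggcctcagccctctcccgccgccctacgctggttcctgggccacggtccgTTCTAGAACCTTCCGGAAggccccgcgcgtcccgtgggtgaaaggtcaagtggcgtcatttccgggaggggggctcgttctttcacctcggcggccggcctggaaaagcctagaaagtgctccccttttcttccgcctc
Chordc1 held 5 matches, of which 4 overlap in a single run at the transcript start. Hsph1 held 3, and Hspe1 held 3 in a single run. Dnaja1, Hspa1a, Hspb8 and Dnajb4 held 1 each. That of Dnaja1 was only in the first of its 3 listed promoters, and that of Dnajb4 in the second of its 2. Hspa1b, a near copy of Hspa1a, has its single match at the same place, 104 bases before the start.

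Among the HSP70 genes, the inducible Hspa1a and the mitochondrial Hspa9 rose, and the abundant constitutive Hspa8 did not pass. Hspa9 (ENSMUSG00000024359) encodes mortalin, which pulls proteins into mitochondria and folds them there. Its level was 157, 179 and 173 CPM in the hyperoxia libraries, against 112, 109 and 115 CPM in the room air libraries. The groups did not overlap and each was tight (169.7 ± 11 against 112 ± 3.10 CPM, SD, n = 3 each; log2 fold change 0.60, SE 0.10, adjusted p = 0.00415 by edgeR).

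Hspa1a (ENSMUSG00000091971), the textbook stress-inducible HSP70 gene, had 148, 139 and 207 CPM in hyperoxia, against 70.0, 108 and 90.1 CPM in room air. Hyperoxia 3 was the highest and room air 1 the lowest library, and the groups did not overlap (log2 fold change 0.88, SE 0.18, adjusted p = 0.0121 by edgeR). Hspa1b, which encodes the same kind of inducible HSP70, had 229, 215 and 317.5 CPM in hyperoxia, against 107, 204 and 190 CPM in room air. The same libraries were highest and lowest, and the gene did not pass (log2 fold change 0.61, SE 0.23, adjusted p = 0.122), although it did in edgeR with no filter on low counts (adjusted p = 0.000233) and by DESeq2 (0.0419), where its adjusted p-values over the alternatives reached 0.481. Of the 75-base windows in the annotated transcripts of Hspa1a, 52.7% also occur in Hspa1b, and 19% of the Hspa1a exon sequence lies opposite another annotated gene, so the split of reads between the 2 genes is uncertain. Counted as 1 gene, they had 376, 354 and 525 CPM in hyperoxia and 177, 312 and 280 CPM in room air, and did not pass (log2 fold change 0.71, SE 0.21, adjusted p = 0.0591). The Hspa1a call was also lost without room air 1 (adjusted p = 0.0511), without hyperoxia 2 and room air 3 together (0.0543) and with a term for Y-linked reads (0.0951).

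Immediate early genes, which warm digestion can induce, were set beside them. Of 20 such genes, 10 were higher in hyperoxia and 1, Klf2, was lower, and their sum was 15665, 16884 and 16607 CPM in hyperoxia, against 10689.6, 15431 and 11660 CPM in room air. Within room air the order of the sum was that of Hspa1a and of Hspa1b, lowest in room air 1 and highest in room air 2. Within hyperoxia the orders differed, with the highest sum in hyperoxia 2, the lowest hyperoxia library for Hspa1a and Hspa1b. The most abundant of them were Egr1 (2834 ± 140.9 CPM in hyperoxia and 1646 ± 474.8 CPM in room air), Jun (1754 to 1934 CPM in hyperoxia and 1295 to 1773 CPM in room air, not passing), Fos (1739 ± 99 CPM in hyperoxia and 1021 ± 230.9 CPM in room air) and Junb (1569 ± 32.1 CPM in hyperoxia and 982 ± 229 CPM in room air). Whether handling had a part in the Hspa1a level was not tested.

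Hspa8 had 1645, 1461 and 1579 CPM in hyperoxia and 1698, 1627 and 1552 CPM in room air, with overlapping groups (log2 fold change -0.06, 95% interval -0.35 to 0.24). Of its 75-base windows 32.8% also occur in other annotated genes, so its count is uncertain. Hspa2, an HSP70 best known from the testis, had 25.7, 28.0 and 27.4 CPM in hyperoxia and 17.9, 24.6 and 22.2 CPM in room air (log2 fold change 0.33, SE 0.14, adjusted p = 0.179). Hspa12b had 240.5, 173 and 222 CPM in hyperoxia, against 337.5, 305 and 210.2 CPM in room air. Hyperoxia 2 and room air 3 were its lowest libraries, as they were for the pan-endothelial sum, and it did not pass (log2 fold change -0.42, SE 0.18, adjusted p = 0.178). It passed as lower without room air 3 (log2 fold change -0.60, adjusted p = 0.0241), without hyperoxia 2 and room air 3 together (adjusted p = 0.0182) and with no filter on low counts (0.0255), and over the alternatives its adjusted p ran from 0.0182 to 0.433. Hspa13, an HSP70 of the secretory pathway, and Hspa14, an HSP70 that works at the ribosome, had log2 fold changes of -0.11 and -0.18 and did not pass.

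The 3 HSP110 genes, which encode nucleotide exchange factors of HSP70, went in different directions. Hspa4l (ENSMUSG00000025757) had 22.5, 31.6 and 27.7 CPM in hyperoxia, against 16.1, 18.6 and 16.5 CPM in room air, and rose (log2 fold change 0.68, SE 0.15, adjusted p = 0.0171 by edgeR). Hsph1 (ENSMUSG00000029657) had 25.5, 27.7 and 31.8 CPM in hyperoxia, against 39.6, 38.8 and 37.8 CPM in room air, and fell (log2 fold change -0.45, SE 0.12, adjusted p = 0.0348 by edgeR). Neither pair of groups overlapped, and the room air values of both genes were close together. Hspa4, the most abundant of the 3 per kilobase, had 136, 127 and 142.5 CPM in hyperoxia and 148, 140 and 145 CPM in room air (log2 fold change -0.09, 95% interval -0.31 to 0.13). Within a library, Hspa4l counts came to 88.2, 114 and 86.9 per 100 counts of Hsph1 in hyperoxia, against 40.7, 47.9 and 43.6 in room air, a ratio that needs no scaling between libraries. The ratio was chosen after the opposite calls of both genes were seen, so its separation is no further support. The Hspa4l call was lost without hyperoxia 2 (adjusted p = 0.0511), hyperoxia 3 (0.0671), room air 1 (0.0612) or hyperoxia 2 and room air 3 together (0.0885). The Hsph1 call was lost without any single library except hyperoxia 3, with adjusted p-values of 0.0574 to 0.132, and with the replicate block (0.0694), a term for Y-linked reads (0.0854) or hyperoxia 2 and room air 3 left out (0.0807).

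Among the 8 HSP40 genes, Dnajb4 rose, Dnaja1 fell and 6 did not pass. Dnajb4 (ENSMUSG00000028035) encodes an HSP40 of the same class as the stress-inducible Dnajb1. It had 54.8, 69.7 and 61.5 CPM in hyperoxia, against 30.7, 32.2 and 38.8 CPM in room air, and every hyperoxia library lay above every room air library (log2 fold change 0.87, SE 0.13, adjusted p = 0.00247 by edgeR). Dnaja1 (ENSMUSG00000028410), a general HSP40 of the cytosol, had 202, 212 and 206 CPM in hyperoxia, against 257, 306 and 291 CPM in room air (log2 fold change -0.46, SE 0.11, adjusted p = 0.0247 by edgeR). Dnaja1 counts in hyperoxia were close together and all below room air, and 10.8% of its exon sequence lies opposite Smu1, so some of its reads may belong to that gene. Its call was lost without hyperoxia 1 (adjusted p = 0.0945), hyperoxia 2 (0.0564), hyperoxia 3 (0.0951) or room air 2 (0.0861), with the replicate block (0.0666) and with a term for Y-linked reads (0.119). Within a library, Dnajb4 came to 27.1, 32.8 and 29.8 counts per 100 Dnaja1 counts in hyperoxia, against 11.9, 10.5 and 13.3 in room air. This ratio too was chosen after both calls were seen, so its separation is no further support.

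Dnajb1 itself, a partner of HSP70 under heat stress, had 150.1, 157 and 152 CPM in hyperoxia and 116, 142 and 117 CPM in room air. Its groups did not overlap, but it did not pass (log2 fold change 0.29, SE 0.11, adjusted p = 0.126). Dnajb2, a co-chaperone that hands clients to the proteasome, was likewise apart at 30.8, 32.6 and 33.5 CPM in hyperoxia and 26.0, 25.9 and 25.5 CPM in room air (log2 fold change 0.32, SE 0.11, adjusted p = 0.0888). Dnajb5, another HSP40 of the Dnajb1 class, had 41.1, 37.2 and 37.0 CPM in hyperoxia and 50.4, 59.1 and 42.7 CPM in room air (log2 fold change -0.40, SE 0.13, adjusted p = 0.0804). It passed as lower by DESeq2 (adjusted p = 0.0452), with no filter on low counts (0.0381), without room air 3 (0.0274) and without hyperoxia 2 and room air 3 together (0.0432). Dnaja2 and Dnaja4, relatives of Dnaja1, and Dnajb6, which keeps polyglutamine proteins from aggregating, had log2 fold changes of 0.05, 0.13 and 0.07 and did not pass. Of the Dnaja4 exon sequence 44.1% lies opposite Wdr61.

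**Figure D4:**
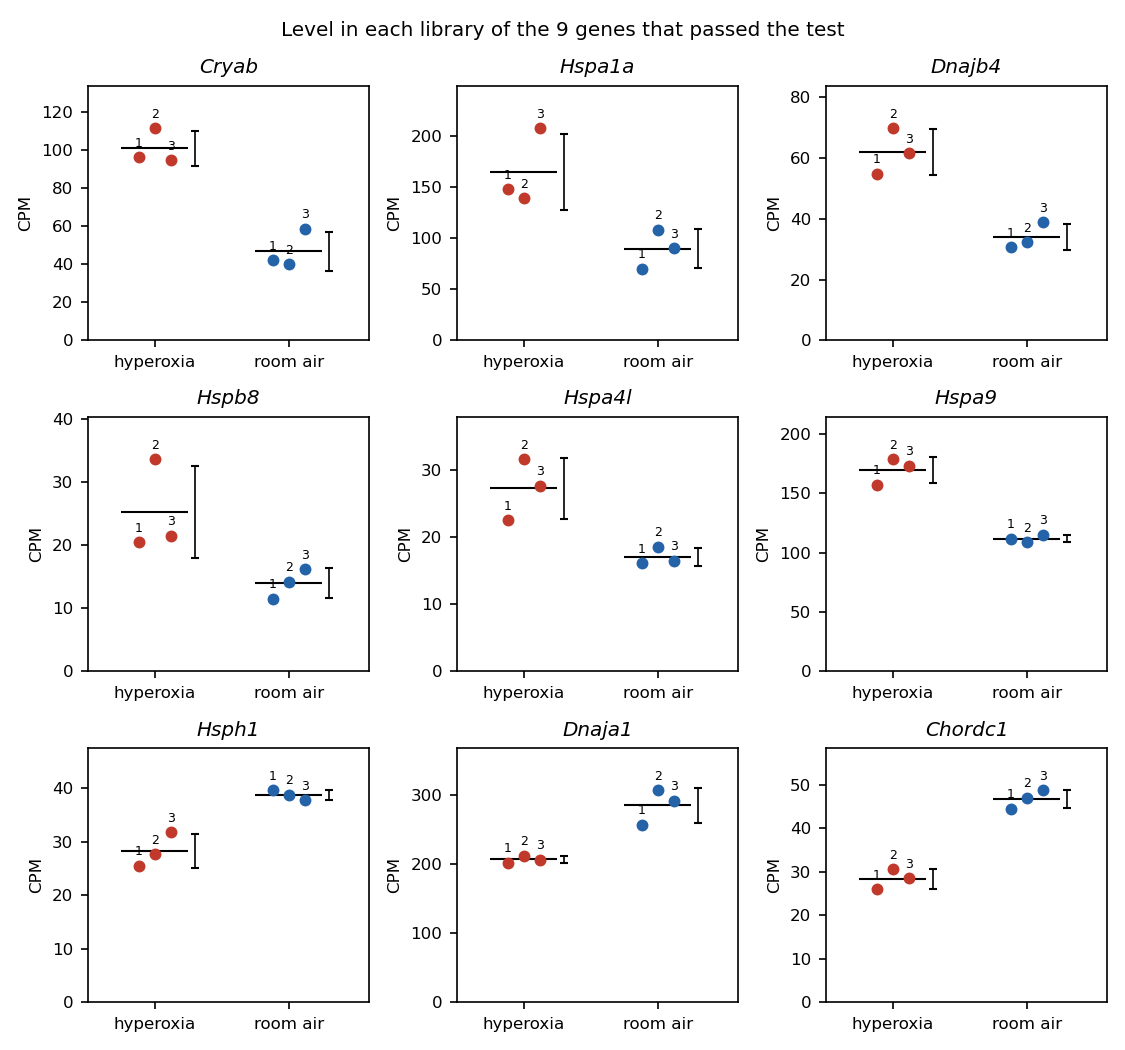
CPM in each library of the 9 genes that passed the test, as points numbered by replicate, hyperoxia in red and room air in blue, with the mean as a line and the SD as a bar at its right (n = 3 each). In all 9 panels the hyperoxia and room air points do not overlap. The genes were picked by the test on these same values, so their separation is no further support.

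All 3 small heat shock protein genes among the 41 were higher in hyperoxia by value, and 2 of the 3 passed. Outside the 41, Hspb2 was higher by value (log2 fold change 0.54), whereas Hspb6 (-0.25) and Hspb7 (-0.63) were lower, and none of them passed. The groups did not overlap for Hspb7, at mean levels of 1.55 CPM in hyperoxia and 2.41 CPM in room air. Cryab (ENSMUSG00000032060), the alpha-B-crystallin gene, which holds misfolded proteins soluble and binds desmin and actin filaments in muscle, had 96.4, 111 and 94.8 CPM in hyperoxia, against 42.1, 40.0 and 58.6 CPM in room air. This was the largest change of the 41 genes, with room air 3 nearest to the hyperoxia group (100.9 ± 9.13 against 46.9 ± 10.2 CPM, SD, n = 3 each; log2 fold change 1.11, SE 0.15, adjusted p = 0.0014 by edgeR). Of its exon sequence 17% lies opposite Hspb2, a small heat shock protein gene whose own level was 0.412, 0.692 and 0.762 CPM in hyperoxia and 0.363, 0.51 and 0.41 CPM in room air. Hspb8 (ENSMUSG00000041548), which works with BAG3 in clearing aggregates, had 20.5, 33.6 and 21.5 CPM in hyperoxia, against 11.5, 14.2 and 16.2 CPM in room air (log2 fold change 0.85, SE 0.21, adjusted p = 0.0255 by edgeR). Hyperoxia 2 was its highest library by a wide margin, and the call was lost without it (log2 fold change 0.59, adjusted p = 0.0638) and without room air 1 (0.0926) or room air 2 (0.0845). Hspb1, which protects actin filaments under stress, had 67.8, 67.0 and 71.1 CPM in hyperoxia and 55.3, 60.0 and 53.2 CPM in room air (log2 fold change 0.29, SE 0.10, adjusted p = 0.0926), and 46.4% of its 75-base windows also occur in a pseudogene.

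Small heat shock proteins are abundant in muscle, so muscle markers were set beside them. Of 12 smooth muscle and pericyte markers, 0 passed by edgeR (0 at an unadjusted p under 0.05, and 0 by DESeq2). Their sums were 370, 769 and 487 CPM in hyperoxia and 395, 397 and 541 CPM in room air, highest in hyperoxia 2, which was also the highest library for Hspb8 and Cryab. Of 8 tested cardiac muscle markers, 1 was lower in hyperoxia and 0 were higher by edgeR (4 at an unadjusted p under 0.05, and 2 called by DESeq2). The gene that passed was Myl7, at a mean of 0.181 CPM in hyperoxia and 2.25 CPM in room air (log2 fold change -3.61, adjusted p = 0.0121 by edgeR). By value 7 of the 8 were lower, and 4 had groups that did not overlap (50%, where 30.9% of all tested genes did not). The cardiac sums were 30.8 to 52.9 CPM in hyperoxia and 36.3 to 61.9 CPM in room air. The cardiac myosin gene Myh6 stood at 1.02, 0 and 1.22 CPM in hyperoxia and 10.4, 1.45 and 3.72 CPM in room air, and did not pass (adjusted p = 0.112). The most abundant cardiac marker, Actc1, overlapped between the groups at 13.6, 34 and 20.5 CPM in hyperoxia and 24.5, 15.3 and 29 CPM in room air. Cryab passed without hyperoxia 2 as well. That fit keeps whatever muscle RNA the remaining libraries hold, so it cannot decide the part of muscle. The alveolar type 1 sum was 7476, 8411 and 7197 CPM in hyperoxia and 4571, 4891 and 5112 CPM in room air, without overlap, and it too was highest in hyperoxia 2. The part of muscle and alveolar type 1 cells in the Cryab and Hspb8 levels was not tested.

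Among HSP90 and the co-chaperones, Chordc1 fell and the others did not pass. Hsp90aa1, the inducible cytosolic HSP90, had 246, 297 and 274 CPM in hyperoxia and 225, 245 and 259 CPM in room air (log2 fold change 0.16, 95% interval -0.10 to 0.43). Hsp90ab1 had 1979, 1773 and 1930.5 CPM in hyperoxia and 1879, 1747 and 1630.2 CPM in room air (log2 fold change 0.11, 95% interval -0.19 to 0.42). Both pairs of groups overlapped, and 42.8% of the 75-base windows of Hsp90aa1 also occur in other annotated genes, so its count is uncertain. Chordc1 (ENSMUSG00000001774) encodes CHP-1, a zinc-binding partner of HSP90. It had 26.0, 30.6 and 28.5 CPM in hyperoxia, against 44.5, 47.0 and 48.7 CPM in room air. All hyperoxia libraries lay well below all room air libraries, and it was the largest fall of the 41 genes (28.4 ± 2.3 against 46.7 ± 2.08 CPM, SD, n = 3 each; log2 fold change -0.72, SE 0.11, adjusted p = 0.00274 by edgeR).

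Of the other 5 co-chaperones, 0 passed by edgeR (1, Fkbp4, at an unadjusted p under 0.05, and 0 by DESeq2). Fkbp4, an immunophilin that joins HSP90 to steroid receptors, had 121, 124 and 124 CPM in hyperoxia and 156, 131 and 148 CPM in room air, without overlap (log2 fold change -0.23, SE 0.11, adjusted p = 0.195). Stip1, which bridges HSP70 and HSP90, had a log2 fold change of 0.01 (95% interval -0.23 to 0.25), and Ahsa1, which speeds the ATPase of HSP90, one of -0.01 (95% interval -0.25 to 0.24). St13, an HSP70 cofactor, had a log2 fold change of -0.14 (95% interval -0.37 to 0.09). Bag3, an HSF1 target that directs HSP70 clients to autophagy, had 128, 104 and 138 CPM in hyperoxia and 126, 135 and 97.5 CPM in room air, and was lowest in room air 3 (log2 fold change 0.04, 95% interval -0.28 to 0.37).

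The chaperonin genes did not pass, 0 of 7 CCT genes and 0 of 2 mitochondrial ones by edgeR (0 at an unadjusted p under 0.05, and 0 by DESeq2). The CCT complex folds actin and tubulin, and 7 of its genes are among the 41 (Cct2, Cct3, Cct4, Cct5, Cct7, Cct8 and Tcp1). Their log2 fold changes ran from -0.03 for Cct3 to 0.18 for Cct7, and the summed level was 1141, 1094 and 1109 CPM in hyperoxia and 1187.5, 995 and 1068.5 CPM in room air. The widest 95% limits among them were -0.29 for Cct3 and 0.43 for Cct7, so a change of 1 on the log2 scale lay outside every interval. Room air 1 and room air 2 were the extremes of this sum. Cct6a, a CCT gene outside the 41, had 129, 117 and 119 CPM in hyperoxia and 142, 118 and 135 CPM in room air, and did not pass (log2 fold change -0.11, 95% interval -0.36 to 0.13). The mitochondrial chaperonin Hspd1 (HSP60) and its lid Hspe1 (HSP10) had log2 fold changes of -0.09 (95% interval -0.31 to 0.14) and 0.21 (95% interval -0.12 to 0.55). Their partner in the mitochondrial matrix, Hspa9, came to 210, 214 and 232 counts per 100 Hspd1 counts in hyperoxia, against 132.8, 141 and 133 in room air. Of the 75-base windows of Hspd1 29.6% also occur in other annotated genes, so its count and this ratio are uncertain.

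The heat shock factor genes did not pass, although the groups did not overlap for either (1 at an unadjusted p under 0.05, and 0 by DESeq2). Hsf1, the main heat shock regulator, had 43.6, 35.5 and 39.8 CPM in hyperoxia and 43.9, 56.5 and 47.7 CPM in room air (log2 fold change -0.32, SE 0.13, adjusted p = 0.152). Hsf2, a related factor active in development, had 11.5, 8.5 and 11.1 CPM in hyperoxia and 12.3, 14.8 and 13.2 CPM in room air (log2 fold change -0.37, SE 0.18, adjusted p = 0.222). Hyperoxia 1 and room air 1 were the nearest pair in both genes, and hyperoxia 2 was lowest.

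**Figure D5:**
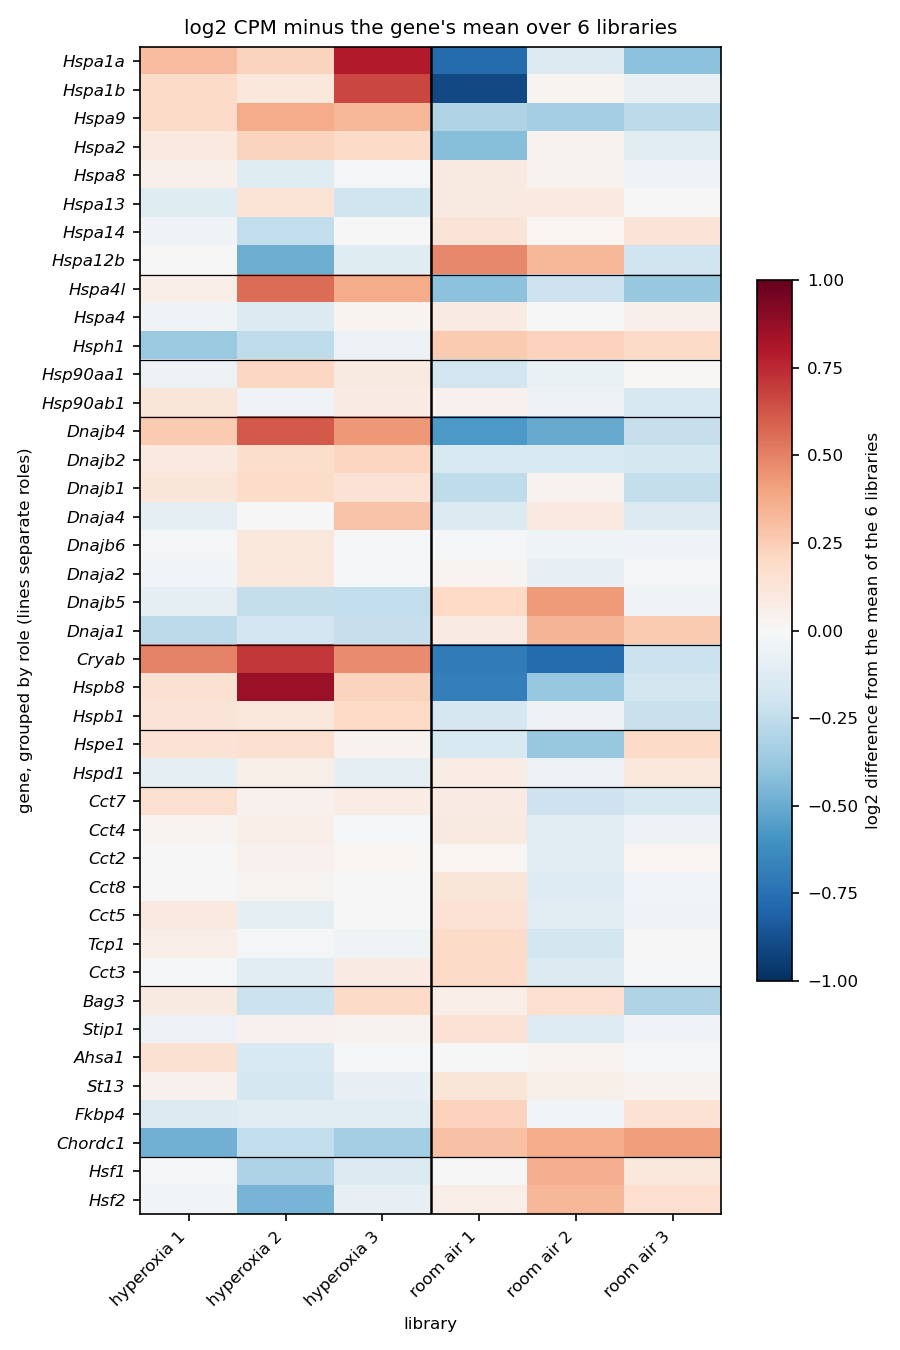
The log2 CPM of each of the 41 genes in each library minus the gene's mean over the 6 libraries, grouped by role, with hyperoxia libraries left of the line. The rows of Cryab, Dnajb4 and Hspa9 are red in all 3 hyperoxia libraries, that of Chordc1 is blue in all 3, and the CCT rows are pale in all 6.

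Counts of related genes were also set against each other within a library, which needs no scaling. Hspa4l came to 16.5, 24.9 and 19.4 counts per 100 Hspa4 counts in hyperoxia, against 10.9, 13.3 and 11.4 in room air. Hspa1a and Hspa1b together came to 22.9, 24.2 and 33.2 counts per 100 Hspa8 counts in hyperoxia, against 10.4, 19.2 and 18 in room air. Cryab came to 142, 166 and 133 counts per 100 Hspb1 counts in hyperoxia, against 76.1, 66.7 and 110.2 in room air. Of the 75-base windows, 32.8% of those of Hspa8 and 46.4% of those of Hspb1 also occur in other annotated genes. The ratios to Hspa8 and to Hspb1 are therefore uncertain. Cct7 came to 21.9, 20.8 and 21 counts per 100 counts of the other 6 CCT genes among the 41, which leave out Cct6a, in hyperoxia, against 19.5, 19 and 18.1 in room air. The 7 ratios computed were chosen after the values were seen. None overlapped between the groups, and each had a 2-sided exact permutation p = 0.1 (0.1 after adjustment over the 7), the smallest that 3 against 3 libraries allow.

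Chaperone genes outside the 41 were taken from 3 lists of 90 genes, also chosen with earlier results of these data known. Of the 90 genes, 86 were tested. Of these, 1 was higher, 7 were lower and 78 did not pass, or 9.3% called where 11.2% of all tested genes were (6.77% higher and 4.41% lower). The groups did not overlap at 32 of the 86 (37.2%), 10 higher and 22 lower. Of all tested genes 30.9% did not overlap (16.5% higher and 14.4% lower). In the cytosolic and nuclear list, 1 of 52 tested genes rose and 3 fell, and the median over the 52 was -0.12 on the log2 scale. Ppid, an HSP90-binding cyclophilin, fell to 19.7, 17.1 and 18.8 CPM in hyperoxia, against 31.1, 35.8 and 35.2 CPM in room air (log2 fold change -0.88, SE 0.12, adjusted p = 0.00175 by edgeR), and passed under every alternative run. Ahsa2, a relative of Ahsa1, fell (8 ± 0.471 against 13.6 ± 1.5 CPM; log2 fold change -0.76, adjusted p = 0.0154), as did Hspa12a, a relative of Hspa12b (8.99 ± 0.336 against 14.2 ± 1.88 CPM; log2 fold change -0.66, adjusted p = 0.0301). Bag1, an HSP70 cofactor that links it to the proteasome, rose (176 ± 15 against 120.4 ± 15.1 CPM; log2 fold change 0.55, adjusted p = 0.0168). The Bag1 call was lost without hyperoxia 2 (adjusted p = 0.053), room air 2 (0.0695) or hyperoxia 2 and room air 3 together (0.0527). That of Ahsa2 was lost without hyperoxia 1 (0.0506) or hyperoxia 2 and room air 3 together (0.0553). That of Hspa12a was lost without any single library except room air 3 (0.0651 to 0.117), with the replicate block (0.0717) and with a term for Y-linked reads (0.0694). In the mitochondrial list 0 of 15 passed by edgeR (1 at an unadjusted p under 0.05, and 0 by DESeq2), and the median was 0.04 on the log2 scale.

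In the endoplasmic reticulum list, 4 of 19 fell, 0 rose and 15 did not pass (9 at an unadjusted p under 0.05, and 8 called by DESeq2). The median over the 19 was -0.19 on the log2 scale. The 4 were the disulfide isomerase gene Pdia6 (log2 fold change -0.59, adjusted p = 0.00801), the calcium-binding lectin chaperone gene Calr (-0.56, adjusted p = 0.0204), the collagen chaperone gene Serpinh1 (-0.55, adjusted p = 0.0387) and the endoplasmic reticulum HSP90 gene Hsp90b1 (-0.40, adjusted p = 0.045). Pdia6 passed under every alternative, and the other 3 were each lost without any single library except room air 3 (0.0561 to 0.144) and with the replicate block (0.0605 to 0.112). Hsp90b1 was lost with a term for Y-linked reads as well (0.101). The summed level of the list was 5098, 4736 and 5008 CPM in hyperoxia, against 6611, 5743 and 5798.5 CPM in room air, without overlap. The sum of the 41 heat shock chaperone genes, much of it from Hsp90ab1 and Hspa8, overlapped between the same groups.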

How the data were processed

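The deposited values were whole-number counts per Ensembl gene, 1 column per library. Per the submitters' processing notes, the authors' tools were HISAT2 2.2.1, featureCounts, Subread 2.0.6 and DESeq2, with build GRCm39. For the annotation release, the strand setting and reads mapping to several places, a description was not given in the sources used here. From these counts, edgeR 4.0.16 (R 4.3.3) kept 17072 genes (filterByExpr, minimum count 10, minimum total 15), scaled them by TMM and fitted a robust quasi-likelihood model of hyperoxia over room air on all 6 libraries, with Benjamini-Hochberg adjustment over all tested genes and a threshold of 0.05. The SE of a log2 fold change was its size over the square root of F, and 95% intervals built from it are approximate. Depths were alike, so precision was set mainly by the spread between libraries (biological coefficient of variation 0.229).

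Symbols (51948 of 56941 IDs matched), exon lengths, opposite-strand overlaps and shared 75-base windows came from GENCODE M21 (GRCm38), and promoters from RefSeq GRCm38.p6, so they describe another build than the counts. All members are described and tested. Outside the 41, up to 4 called genes with the largest change per chaperone list, the 4 immediate early genes with the highest mean CPM and the defining cell markers could be named. Klf2, Cct6a, Actc1, Myl7, Hspb6 and Hspb7 were named after their values were seen. The members and lists were chosen with earlier results of these data known. The promoter search, the ratios, the term for Y-linked reads and the fit without hyperoxia 2 and room air 3 were chosen after seeing the data. Alternatives were DESeq2 1.42.0 size factors and test, limma-voom (limma 3.58.1), library size scaling, other filters, a replicate block, a summed Hspa1a and Hspa1b, and leaving out each library. Only the edgeR test was also run on simulated counts with known fold changes, with an outcome not reported here.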

Additional observations from a re-analysis of the deposited data

How the results depend on the processing

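Among the 41 genes, 6 higher and 3 lower in the reported fit became 5 lower with no filter on low counts, 1 lower with the replicate block, 1 lower with a term for Y-linked reads and 3 higher without room air 1. Leaving out 1 library at a time gave 3 to 6 higher and 1 to 4 lower. Over all tested genes, 753 lower of 17072 became 1242 by DESeq2 and 1223 with the term for Y-linked reads, out of the same 17072. With no filter 1243 were lower, but out of 28362 tested genes, so that count is not comparable with the others. Leaving out 1 library gave 681 to 1095 higher (1156 reported) and 376 to 749 lower, out of 17581 to 17799 tested genes. Of the other chaperones, 1 higher became 2 with the term for Y-linked reads and 0 without hyperoxia 2 and room air 3 (0 to 1 over single omissions), and 7 lower became 13 by DESeq2 and 4 with the block (2 to 7 over single omissions). Of 654 recomputed values of the 41 genes, 0 reversed a call, 24 lost one and 9 gained one. The labels do not say whether libraries with the same replicate number belong together. The correlations of their deviations were 0.112, -0.0389 and -0.0899, which cannot decide this with so few libraries. The block, which called 881 genes higher and 514 lower, is therefore not known to be a pairing. With 3 libraries a group, leave-outs rest on few degrees of freedom. The median of all genes lay between -0.03 (library size scaling) and -0.01 (reported fit) on the log2 scale over the scalings tried.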

Other observations

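Y-linked reads (4 genes, raw counts summed) came to 2, 6263 and 0 in hyperoxia 1, 2 and 3, and to 5433, 6361 and 6311 in room air 1, 2 and 3. Their near absence occurred only in hyperoxia, so it is partly confounded with oxygen in every fold change given here. With a term for these reads, the group difference rests on hyperoxia 2 against the 3 room air libraries. Under that term Cryab, Dnajb4, Hspa9, Hspa4l, Hspb8 and Chordc1 passed, and Hspa1a, Hsph1 and Dnaja1 did not.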
